A study of Mus musculus with 16 samples.

Results

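Olfr237, Olfr1042, Olfr1384 and Olfr1406 are mouse odorant receptor genes whose signal was far lower in GFP+ than in GFP- cells of the olfactory mucosa. They are 4 of the 1080 odorant receptors and 19505 genes measured. They were chosen by name because their GFP+ minus GFP- differences lay among the lowest of the family, and each has 1 probe set on the array. The GFP+ against GFP- values therefore chose the genes and are given below as a description, without a test. The comparison of smoke with vehicle is not part of that rule and is tested.

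The arrays came from S100a5-tauGFP mice, in which green fluorescent protein (GFP) marks cells that express S100a5. The 24 mice, of both sexes and 7 to 12 weeks old, spent 40 h in individual clean air chambers. From 26 h on, mice received pulses of cigarette smoke odour or of filtered air (vehicle) lasting 10 s and returning every 20 min. Mucosa was dissociated in 8 pools of 3 mice, 4 pools for each exposure, and the cells of every pool were sorted by GFP into GFP+ and GFP- cells. This gave 4 groups of 4 arrays, namely smoke GFP+, smoke GFP-, vehicle GFP+ and vehicle GFP- cells, and all 4 groups carry the reporter. The series text names another odour, bourgeonal, but every sample label names cigarette smoke. The fractions are bulk samples, in which fewer cells of a type and less RNA per cell cannot be told apart.

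Odorant receptors are G protein-coupled receptors on the cilia of olfactory sensory neurons. A mature neuron as a rule expresses a single receptor gene, from a single allele, so the RNA of a receptor stands for the neurons that chose it. S100a5 encodes a calcium-binding protein whose expression in these neurons follows their recent activity. Receptors low in GFP+ cells may be those of neurons with little of the reporter, which was not tested. The smoke comparison asks whether the odour changed the receptor signal in either fraction or the ratio between them. No label names an odorant for Olfr237, Olfr1042, Olfr1384 or Olfr1406.

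The promoters of odorant receptor genes are known for binding sites of homeodomain proteins such as Lhx2 and of the Olf1/Ebf factors. Because the 4 receptors share a pattern across the sort, the windows from 250 bases before to 50 bases after the RefSeq start are shown for the 3 with an entry in the RefSeq promoter table (GRCm38.p6). Olfr1042 is named only. Capitals mark matches to TAATNA on either strand, the homeodomain core. The Olfr237 window is chr6:43153057-43153356 on the plus strand, the Olfr1384 window chr11:49513368-49513667 on the plus strand and the Olfr1406 window chr1:173184455-173184754 on the minus strand, each printed 5′ to 3′.
Olfr237: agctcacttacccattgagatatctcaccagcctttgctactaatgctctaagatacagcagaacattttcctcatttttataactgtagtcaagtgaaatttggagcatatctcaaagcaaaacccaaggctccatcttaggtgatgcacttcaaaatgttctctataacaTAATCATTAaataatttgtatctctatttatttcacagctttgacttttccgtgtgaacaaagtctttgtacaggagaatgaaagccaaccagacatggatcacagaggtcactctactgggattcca
Olfr1384: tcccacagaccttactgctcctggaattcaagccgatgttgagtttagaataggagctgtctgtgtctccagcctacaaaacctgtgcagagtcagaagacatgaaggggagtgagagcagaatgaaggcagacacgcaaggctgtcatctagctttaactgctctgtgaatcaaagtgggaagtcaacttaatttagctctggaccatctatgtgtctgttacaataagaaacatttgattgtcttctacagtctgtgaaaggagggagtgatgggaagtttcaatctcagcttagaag
Olfr1406: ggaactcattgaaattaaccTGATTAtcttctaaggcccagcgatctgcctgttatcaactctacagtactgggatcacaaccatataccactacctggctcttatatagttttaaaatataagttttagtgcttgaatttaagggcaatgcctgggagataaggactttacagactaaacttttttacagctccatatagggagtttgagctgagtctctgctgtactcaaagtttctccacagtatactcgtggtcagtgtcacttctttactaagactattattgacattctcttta
The Olfr237 window held 2 overlapping homeodomain matches, beginning at positions -78 and -75 from the RefSeq start. The Olfr1406 window held 1, at position -230, and the Olfr1384 window held 0. No window held CCCNNGGG, the paired half-sites of the Olf1/Ebf motif, on either strand. Among 925 odorant receptor windows, 66.4% held the homeodomain core and 2.92% the Olf1/Ebf motif, against 26.5% and 13.7% of all 32851 promoter windows. Receptor windows had a mean GC content of 36.1%, against 53.8% over all windows, and chance matches of both motifs depend on base composition. The RefSeq model of Olfr237 begins with ATG, so its window holds the sequence just before the coding region, and a transcription start farther upstream would lie outside it. A match of letters is not evidence of binding.

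Across the sort, each receptor was low on every GFP+ array and high on every GFP- array. Values are the deposited array values on the log2 scale, on which a difference of 1 is a doubling if the scale is not stretched. Olfr1406 had 7.98, 7.78, 7.60 and 7.46 in smoke GFP+ cells and 7.15, 7.51, 7.95 and 7.27 in vehicle GFP+ cells. In GFP- cells Olfr1406 had 13.19, 13.33, 13.35 and 13.76 in smoke mice and 12.73, 13.71, 13.26 and 13.45 in vehicle mice. The highest GFP+ array thus lay below the lowest GFP- array by several log2 units, while the smoke and vehicle arrays of each fraction overlapped.

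Olfr1384 had 8.21, 7.67, 8.01 and 8.62 in smoke GFP+ cells and 7.99, 7.62, 7.83 and 7.06 in vehicle GFP+ cells. In GFP- cells it had 13.49, 13.26, 13.18 and 13.96 in smoke mice and 13.46, 13.42, 13.49 and 12.99 in vehicle mice. Vehicle GFP- replicate 4 was lower than the other 3 of its group, which lay within a narrow range. Olfr1042 had 7.61, 7.96, 7.93 and 7.42 in smoke GFP+ cells and 6.87, 7.19, 7.73 and 6.80 in vehicle GFP+ cells. In GFP- cells it had 12.12, 12.42, 12.08 and 12.23 in smoke mice and 11.86, 12.04, 11.88 and 12.19 in vehicle mice. Of the vehicle GFP+ arrays, replicate 3 was the highest for Olfr1042 and for Olfr1406.

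Olfr237 was the least reduced of the 4. It had 9.32, 9.20, 9.22 and 8.93 in smoke GFP+ cells and 8.58, 8.94, 8.79 and 8.67 in vehicle GFP+ cells. In GFP- cells it had 12.85, 12.86, 12.93 and 12.77 in smoke mice and 12.71, 12.74, 12.38 and 12.89 in vehicle mice. In GFP+ cells the groups overlapped by 1 array each, with smoke replicate 4 just below vehicle replicate 2.

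**Figure D1:**
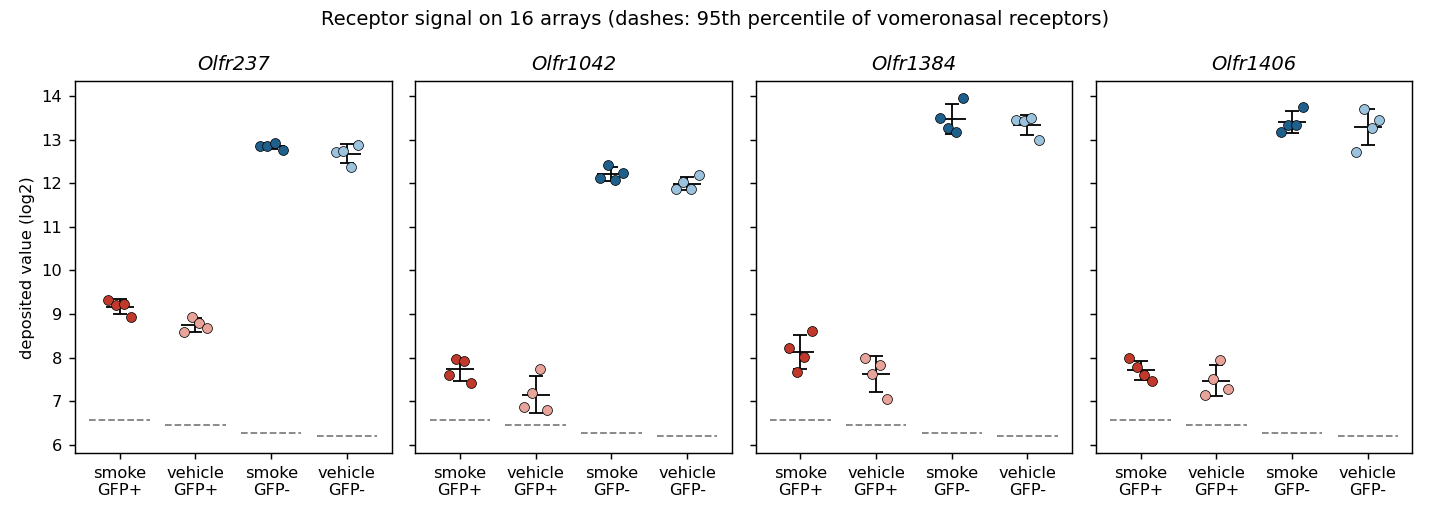
Deposited log2 values of the 4 receptors on 16 arrays, in smoke and vehicle GFP+ and GFP- cells. Points are arrays (n = 4 each), bars are means ± SD and dashes mark each group's mean 95th percentile of vomeronasal receptors. All GFP+ points lie above the dashes and below all GFP- points.

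The group means of all 4 receptors stood in one order, with smoke GFP- cells highest, then vehicle GFP- cells, smoke GFP+ cells and vehicle GFP+ cells. Neighbours in this order within a fraction had overlapping arrays, and the step between vehicle GFP- and smoke GFP+ cells was the one where no array overlapped. Over all 8 pools, GFP+ minus GFP- averaged -5.76 for Olfr1406, -5.53 for Olfr1384, -4.66 for Olfr1042 and -3.81 for Olfr237. On the deposited scale these amount to 54.2-fold, 46.2-fold, 25.4-fold and 14.0-fold lower signal in GFP+ cells. Relative to the median receptor of each array the differences were -6.47, -6.24, -5.37 and -4.52 in the same order, so the size depends on the scaling. GFP+ values near the background level, described below, can also make a fold too small. The difference spanned -6.30 to -5.22 over the pools for Olfr1406, -5.94 to -5.17 for Olfr1384, -5.39 to -4.15 for Olfr1042 and -4.23 to -3.53 for Olfr237. The SD over pools was 0.42, 0.27, 0.43 and 0.25 in the same order (n = 8), small beside the differences themselves. In smoke mice the differences were -5.70, -5.35, -4.48 and -3.69, and in vehicle mice -5.82, -5.72, -4.85 and -3.94. As background, limma called 14.4% of all genes lower in GFP+ than in GFP- cells of smoke mice and 15.4% in vehicle mice, at an adjusted p of at most 0.05. The 4 receptors were chosen on this contrast, so nothing is read from these shares.

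Counted from the lowest difference among 1080 receptors, Olfr1406 was at place 2, Olfr1384 at 3, Olfr1042 at 19 and Olfr237 at 41. The median receptor lay at 0.71, that is, higher in GFP+ cells. Olfr1507, also known as MOR28, had the lowest difference of all (-6.31). The other receptors of the 10 lowest were Olfr390 (-5.50), Olfr677 (-5.40), Olfr1322 (-5.18), Olfr1043 (-5.15), Olfr411 (-5.14), Olfr99 (-5.09) and Olfr826 (-5.07). The choice had no stated limit, and unlisted receptors lay on both sides of the listed ones. Olfr728 (-4.67) and Olfr69 (-4.60) stood on either side of Olfr1042, and Olfr1446 (-3.89) and Olfr307 (-3.81) on either side of Olfr237.

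Whether the 4 receptors gave signal above background in GFP+ cells depended on the receptor and on the background level. Vomeronasal receptors, which the main olfactory epithelium should largely lack, served as the background level, and their 95th percentile was 6.41 to 6.78 on the GFP+ arrays. All 32 GFP+ values of the 4 receptors lay above it. The 99th percentile, 7.28 to 7.82, was exceeded by 20 of the 32 values: all 8 of Olfr237, 6 of Olfr1384 and 3 each of Olfr1042 and Olfr1406. Olfr237 thus lay above either level on every GFP+ array, while Olfr1384, Olfr1042 and Olfr1406 did so on part of the arrays. The description of these receptors as confined to GFP- cells is therefore not settled by these values. GFP+ cells also kept a mean of 7.58 to 8.09 over immune genes, against 12.2 to 13.3 in GFP- cells, and carry-over of GFP- cells in the sort was not tested. Whether they are abundant was not tested, since probe sets of different genes bind with different strength.

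Cells of other kinds moved with the sort, and the values are set beside the receptors here. The list of mature neuron and transduction genes, which includes Omp (the olfactory marker protein), Gnal and Adcy3 (the olfactory G protein subunit and adenylyl cyclase) and the channel gene Cnga2, averaged 15.6 on every smoke GFP+ array and 15.2 to 15.4 on the smoke GFP- arrays. In vehicle mice it averaged 15.6 to 15.7 in GFP+ and 15.2 to 15.3 in GFP- cells. Of 20 measured genes, 9 were higher and 0 lower in GFP+ cells of smoke mice, where 18.3% of all genes were higher. In vehicle mice 12 were higher and 1 lower, where 24.2% of all genes were higher. Immature neuron genes averaged 11.4 to 11.6 in smoke GFP+ cells and 12.7 to 13.1 in smoke GFP- cells. Of 11 measured, 7 were lower in GFP+ cells of either exposure, and 1 was higher in vehicle mice. For this and the counts that follow, 14.4% of all genes were lower in smoke mice and 15.4% in vehicle mice. Immune genes averaged 7.63 to 7.73 in GFP+ and 12.2 to 13.1 in GFP- cells of smoke mice. In vehicle mice they averaged 7.58 to 8.09 in GFP+ and 12.8 to 13.3 in GFP- cells. Of 8 measured immune genes, 7 were lower in GFP+ cells of smoke mice and 8 in vehicle mice, and Cd79a, Ms4a1 and Cd3e lay at or below the vomeronasal level in GFP+ cells. Globose basal genes were lower in GFP+ cells for 4 of 4 and microvillar genes for 5 of 5, in both exposures. Of 4 horizontal basal genes 1 was lower in either exposure, and of 7 sustentacular genes 4 were lower in vehicle mice, while 1 was higher and 0 lower in smoke mice. Of 5 gland genes 2 were lower in vehicle and 1 in smoke mice. In either exposure 1 of 4 ensheathing genes, 1 of 5 endothelial and stromal genes and the 1 measured red blood gene were lower. Krt5, Krt14 and Trp63 (horizontal basal), S100b and Npy (ensheathing) and Cdh5 and Kdr (endothelial) lay at or below the vomeronasal level in every group. The low counts of these lists therefore say little about those cells. Neurog1 of the globose basal list lay at or below that level in every group too. GFP- cells thus carried more signal of immature neuron, immune, globose basal and microvillar genes in both exposures. Its part in the receptor differences was not tested.

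S100a5 itself ran the other way from the 4 receptors. It averaged 17.02 ± 0.15 in GFP+ and 15.87 ± 0.25 in GFP- cells of smoke mice (SD, n = 4 each). In vehicle mice it averaged 16.46 ± 0.06 in GFP+ and 15.25 ± 0.24 in GFP- cells, and its GFP+ values exceeded 16, the highest log2 value of a 16-bit scanner. So did S100a5 in smoke GFP- replicate 1 (16.08). Omp, which is in the mature neuron list, read 18.06 to 18.29 over all arrays. The values of the 4 receptors lay below that ceiling.

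**Figure D2:**
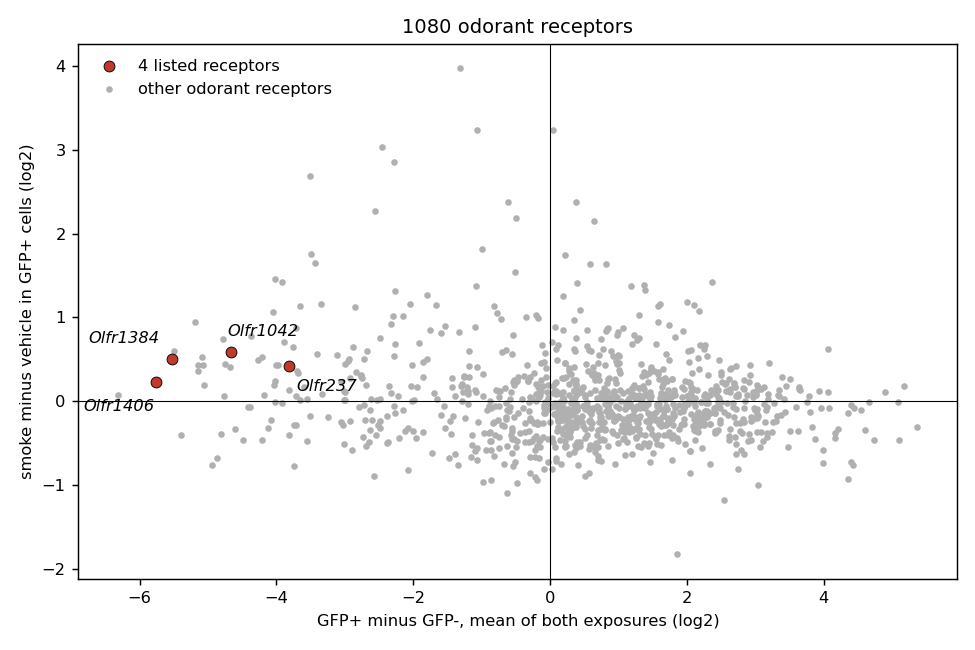
Each point is 1 of 1080 odorant receptors. The horizontal axis is the log2 difference of GFP+ minus GFP- cells, averaged over both exposures, and the vertical axis the log2 difference of smoke minus vehicle in GFP+ cells. The 4 listed receptors lie at the far left, between 0.23 and 0.59 on the vertical axis, below Olfr1278 at 3.97.

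After smoke, 0 of the 4 receptors passed the test in GFP+ cells, where 0.108% of all genes did. Among all 1080 receptors 15 rose and 1 fell past the threshold. At such shares 4 genes would mostly hold none, so nothing is read from the count of 0. Olfr1042 was 7.73 ± 0.26 in smoke GFP+ cells and 7.15 ± 0.43 in vehicle GFP+ cells (SD, n = 4 each), a difference of 0.59 (95% interval 0.20 to 0.97, limma adjusted p = 0.664). Olfr1384 was 8.13 ± 0.40 in smoke and 7.62 ± 0.41 in vehicle GFP+ cells, a difference of 0.50 (0.02 to 0.99, limma adjusted p = 0.999). Olfr237 was 9.16 ± 0.17 in smoke and 8.74 ± 0.16 in vehicle GFP+ cells, a difference of 0.42 (0.16 to 0.68, limma adjusted p = 0.592). Olfr1406 was 7.70 ± 0.23 in smoke and 7.47 ± 0.36 in vehicle GFP+ cells, a difference of 0.23 (-0.21 to 0.68, limma adjusted p = 0.999).

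All 4 GFP+ differences were above 0, with a median of 0.46, and 3 had an unadjusted p below 0.05. Of all receptors 17.9% had such a p in GFP+ cells, and of all genes 4.8%. Smoke and vehicle arrays overlapped for each receptor, while 2.99% of all genes had no overlap. Still, 3 of 4 smoke arrays exceeded the highest vehicle array for Olfr237 and Olfr1384, 2 for Olfr1042 and 1 for Olfr1406. Exact two-sided permutation p-values were 0.0571 for Olfr237, 0.0857 for Olfr1042, 0.114 for Olfr1384 and 0.314 for Olfr1406, where the lowest that 4 against 4 arrays can give is 0.0286. Of all 1080 receptors, 44.5% had a difference above 0 in GFP+ cells and the median was -0.05. The 10 receptors lowest in GFP+ relative to GFP- cells, which include Olfr1384 and Olfr1406, had a median of 0.43 with 9 above 0, and none of these passed either. The intervals of the 4 receptors reached no higher than 0.99, against a rise of 3.97 for Olfr1278, the receptor with the largest rise.

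Sustentacular cell signal also differed between these arrays. The 7 genes of the list, among them Cyp2g1 and Cbr2, averaged 11.9, 12.6, 12.0 and 12.9 in smoke GFP+ replicates 1 to 4. In vehicle GFP+ cells they averaged 11.7 to 12.2, and 0 of 7 passed, against 0.108% of all genes. Without smoke pools 2 and 4, the 2 with the highest of these averages, the differences were 0.63 for Olfr1042, 0.49 for Olfr1384, 0.52 for Olfr237 and 0.32 for Olfr1406. From all pools they were 0.59, 0.50, 0.42 and 0.23. When the list average entered as a covariate, the differences were 0.69, 0.50, 0.56 and 0.35 in the same order. That average was itself higher in smoke GFP+ cells (mean 12.4) than in vehicle GFP+ cells (11.9). The pools left out were picked by it. Neither set of values can therefore separate this signal from smoke, and its part in the receptor differences was not tested.

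In GFP- cells, where the 4 receptors were high, 0 of the 4 passed, against 0.128% of all genes. Smoke and vehicle arrays overlapped for each, while 2.73% of all genes had no overlap. Olfr1042 was 12.22 ± 0.15 in smoke and 11.99 ± 0.15 in vehicle GFP- cells (SD, n = 4 each), a difference of 0.22 (95% interval -0.16 to 0.61, limma adjusted p = 0.918). Olfr237 was 12.85 ± 0.07 in smoke and 12.68 ± 0.22 in vehicle GFP- cells, a difference of 0.17 (-0.09 to 0.43, limma adjusted p = 0.916). Olfr1384 differed by 0.13 (-0.35 to 0.61) and Olfr1406 by 0.12 (-0.32 to 0.56), with limma adjusted p = 0.966 each. None of the 4 had an unadjusted p below 0.05. Exact two-sided permutation p-values ran from 0.114 for Olfr1042 to 0.714 for Olfr1406. The median over the 4 was 0.15, next to 0.16 over all 1080 receptors, of which 1 rose and 22 fell past the threshold. The lowest bound of the 4 intervals was -0.35, whereas Olfr488, the receptor that fell the most in GFP- cells, fell by 3.34.

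A change of the GFP+ to GFP- ratio would show whether the difference between the fractions depended on smoke, and 0 of the 4 receptors passed, against 0.174% of all genes. Within pools, GFP+ minus GFP- for Olfr1384 was -5.28, -5.60, -5.17 and -5.34 in smoke mice and -5.47, -5.80, -5.66 and -5.94 in vehicle mice. For 3 of the 4 smoke pools the value was above every vehicle pool. The estimate was 0.37 in smoke minus vehicle (95% interval -0.31 to 1.06, limma adjusted p = 0.928, exact permutation p = 0.0571). For Olfr1042 it was 0.36 (-0.18 to 0.91, limma adjusted p = 0.917), for Olfr237 0.25 (-0.12 to 0.62, limma adjusted p = 0.913) and for Olfr1406 0.11 (-0.51 to 0.74, limma adjusted p = 0.985). These intervals treat the fractions of a pool as independent. With the pool as a block, the Olfr1384 interval was 0.01 to 0.73 (limma adjusted p = 0.626), which leaves out 0 before adjustment, and the other 3 held 0. Over all 1080 receptors the median was -0.22, and Olfr488 had the largest rise of the ratio (4.49). Past the threshold, the ratio of 30 receptors rose and that of 1 fell.

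**Figure D3:**
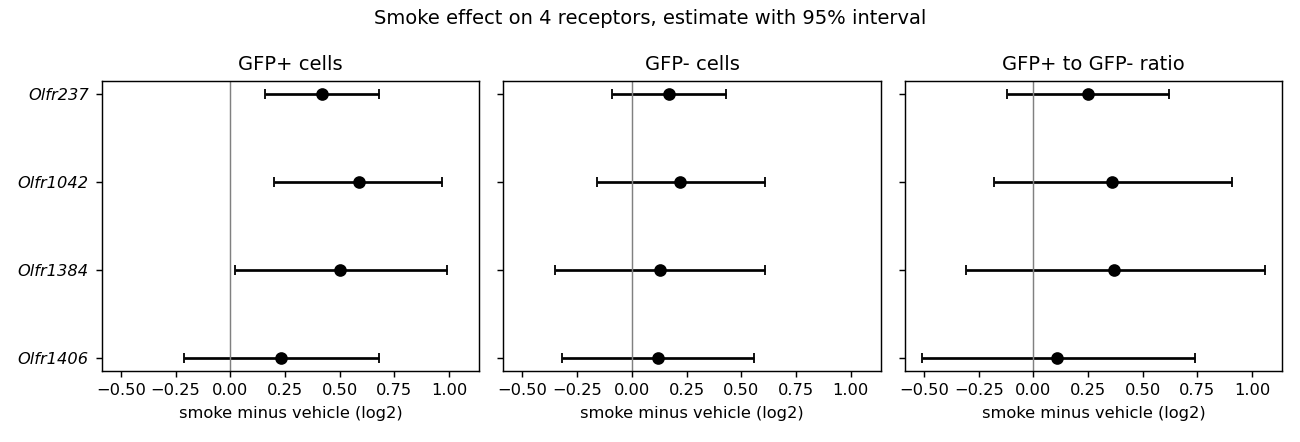
Smoke minus vehicle on the log2 scale for the 4 receptors. The panels are GFP+ cells, GFP- cells and the GFP+ to GFP- ratio, points are limma estimates and bars 95% intervals from the fit without a pool block. All 12 estimates are above 0, and the intervals of Olfr237, Olfr1042 and Olfr1384 in GFP+ cells are the ones in this fit that leave out 0 before adjustment.

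No gene of the neuron lists passed the smoke test either, where 0.108% of all genes passed in GFP+ and 0.128% in GFP- cells. At such shares lists of this size would hold few such genes or none, so nothing about neuron genes is read from it. None of the 20 mature neuron and transduction genes, the 16 genes of receptor choice and trafficking (among them Lhx2, Ldb1, Ebf1 and the transport protein genes Rtp1 and Rtp2, which the first list holds too), the 9 activity-raised genes, the 11 immature neuron genes or the 8 genes of epithelial zone passed in GFP+ or in GFP- cells. The gene with the smallest p of the zone list was Nqo1, a quinone reductase of the dorsal zone, with 0.56 in GFP+ and 0.53 in GFP- cells (limma adjusted p = 0.210 and 0.276). For the transduction list it was Pde4a, a cAMP phosphodiesterase gene, in GFP+ cells (-0.18, adjusted p = 0.999) and Olfm1 in GFP- cells (0.23, adjusted p = 0.873). For the immature list it was Gap43, a growth cone protein gene, in GFP+ cells (0.51, adjusted p = 0.592). S100a5 differed by 0.56 in GFP+ and 0.62 in GFP- cells (limma adjusted p = 0.364 and 0.179), with no overlap between smoke and vehicle arrays in either fraction, as held for 2.99% and 2.73% of all genes.

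The 4 receptors lie on different chromosomes, and their genomic neighbours did not share one pattern across the sort. In the order of the GRCm38.p6 annotation, which was used for names and order alone, Olfr1042 on chromosome 2 stands next to Olfr1043, at -5.15 (7.01 in GFP+ and 12.16 in GFP- cells). On its other side Olfr1040 lay at -0.32, with values of 3.82 in GFP+ and 4.14 in GFP- cells, below the vomeronasal level, and Olfr1039 at -3.34. The farther neighbours Olfr1037, Olfr1044 and Olfr52 were higher in GFP+ cells, by 2.81, 2.68 and 2.94. Olfr237 on chromosome 6 has Olfr441 (-3.66) and Olfr444 (-2.68) on one side and Olfr437 (0.54) and Olfr13 (0.91) on the other.

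Olfr1384 on chromosome 11 and Olfr1406 on chromosome 1 were lower than all of their neighbours. Both were chosen on this difference and held places 3 and 2 of 1080, so that order was all but fixed in advance. The 6 nearest measured receptors of Olfr1384 ran from -0.09 to 2.59, and those of Olfr1406 from -0.46 to 1.35. Olfr1385 (0.29) and Olfr1383 (-0.09) are next to Olfr1384, and Olfr1408 (-0.46) and Olfr218 (0.24) next to Olfr1406. These ranges held the median of all receptors, 0.71. Of the 24 neighbours, Olfr16 rose in GFP+ cells after smoke (1.63, limma adjusted p = 0.0493), with a rise of its ratio by 2.86 (adjusted p = 0.00546), and in GFP- cells Olfr52 fell by 2.02 (adjusted p = 0.0111). Probe sequences were not used here, so signal shared between near-identical receptors, such as neighbours of 1 cluster, was not tested.

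**Figure D4:**
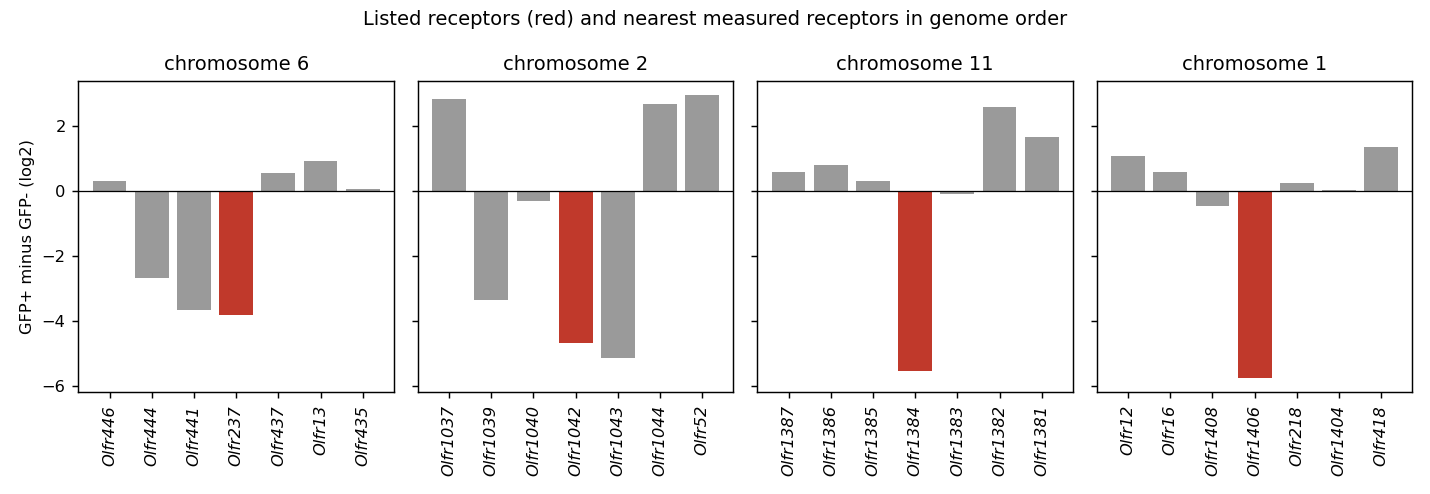
GFP+ minus GFP- (log2, mean of both exposures) for each listed receptor, in red, and its 3 nearest measured odorant receptors on either side, in grey, in genome order. Olfr1384 and Olfr1406 are low among neighbours between -0.46 and 2.59, while Olfr1042 and Olfr237 have low neighbours at -5.15 and -3.66. The listed receptors were chosen on this difference.

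By Pearson's r over the 16 arrays, the gene most like Olfr237 among all 19505 was Olfr1042 (r = 0.996), followed by Olfr1406 (0.994) and Olfr1507 (0.992). For Olfr1042 they were Olfr237, Olfr1406 (0.994) and Olfr77 (0.993). Olfr1406 was most like Olfr1042 and Olfr237 (0.994 each) and then Olfr1507 (0.993). Olfr1384 was most like Olfr1507 (0.992), Egr1 (0.992), an immediate early transcription factor gene with 10.72 in GFP+ and 14.68 in GFP- cells, and Olfr390 (0.990). Among odorant receptors its 3 most alike were Olfr1507, Olfr390 and Olfr1406 (0.989). Between the 4 receptors r was 0.987 to 0.996. All of these correlations rest on the difference between the 8 GFP+ and the 8 GFP- arrays, which come from the same 8 pools, and they are a description of that shared difference.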

How the data were processed

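The authors deposited 1 value per probe set and array on a log2 scale (Affymetrix Clariom S, mouse). The submitters' processing notes name Affymetrix Expression Console, with neither its algorithm nor an annotation build given. The values ran from 2.29 to 18.6 and sorted values differed between arrays by at most 0.346, so the arrays were normalized before deposit. Array medians over genes were 7.87 to 7.96 in GFP+ and 8.19 to 8.29 in GFP- cells, and r between arrays of a group was 0.988 to 0.995. A share of 0.946% of the values exceeded the log2 limit of 16 for a 16-bit scanner, and the folds would be too large if values were stretched.

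The platform annotation gave 19572 of 28846 probe sets 1 gene symbol, and none had several. Where a gene had several probe sets, the one highest on average was kept, which left 19505 genes, 1080 of them odorant receptors and 319 vomeronasal receptors. limma 3.58.1 in R 4.3.3 (lmFit and eBayes) was fitted to all 16 arrays with 4 group means, with Benjamini-Hochberg adjustment of the two-sided p-values over all genes at 0.05. Exact permutation tests used the 70 splits of 4 against 4 arrays or pools, 12 tests in all for the 4 receptors. Replicates are pools of 3 mice, so p-values measure the spread between pools within groups. For limma this is 1 spread per gene shared by GFP+ and GFP- arrays, without a pool term in the main fit. Precision is limited by having 4 arrays in a group. The 2 fractions of a pool come from the same mice, and their deviations from the group means correlated with r of 0.0453 to 0.22. In data simulated for smoke against vehicle in GFP+ cells over 19505 genes, 83% of 100 genes shifted by 1 and 100% of 100 genes shifted by 2 were recovered, with 9 false calls among 192. The data themselves gave 21 calls in this comparison, and the adjusted threshold is easier to pass where more genes change. These shares therefore overstate what the test of the data could find, and smaller shifts were not simulated.

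The 4 receptors, the gene lists and the tests were chosen with earlier results of these data known. Besides the 4 receptors, S100a5 and Omp, the genes named are the 10 receptors lowest in GFP+ relative to GFP- cells, the receptors next to each of the 4 in that order, the nearest 3 measured receptors on either side, the 3 genes most like each by r, the receptors of largest rise and fall, and genes of the lists by smallest p. Alternatives were other scalings, fits, filters and left-out arrays. Promoter sequences are from RefSeq (GRCm38.p6), which holds windows for 3 of the 4 receptors. Python 3.11.15 with matplotlib 3.10.9 made the figures.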

Additional observations from a re-analysis of the deposited data

Results flagged for a closer look

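Olfr1384 had 1 array apart from the rest of its group. Vehicle GFP- replicate 4 read 12.99, while the other 3 vehicle GFP- arrays read 13.42 to 13.49. This was the only such case in 24 groups of 4 arrays examined (the 4 receptors, S100a5 and Omp), and chance gives about 1 in 20. The smoke GFP- arrays of Olfr1384 ran from 13.18 to 13.96.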

How the results depend on the processing

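The 12 smoke differences of the 4 receptors were recomputed under alternatives, 308 values in all. None passed the threshold, with the lowest adjusted p at 0.0902 (Olfr1042 in GFP+ cells without vehicle GFP+ replicate 3, where the difference was 0.78), and 302 kept their direction. Many of the 308 repeat the main estimate by construction, such as a GFP+ difference with a GFP- array left out. The count of 302 therefore says little about how stable the differences are. The 6 that turned were near 0. In GFP- cells, Olfr1384 gave -0.03 without smoke GFP- replicate 4, -0.01 without smoke pools 2 and 4 and -0.13 with immune signal as a covariate. Olfr1406 gave -0.07 without vehicle GFP- replicate 1 and -0.02 without smoke pools 2 and 4, and its ratio gave -0.03 without vehicle GFP- replicate 2. With each array left out, these spanned -0.03 to 0.23, -0.07 to 0.26 and -0.03 to 0.30. With a replicate block, by replicate number for each comparison or by pool for the ratio, none of the 12 calls changed; Olfr1042 in GFP+ cells was then 0.59 (adjusted p = 0.511). Arrays correlated best with their own replicate number in 10 of 16 cases, each matched to the 4 arrays of its fraction from the other exposure. Chance would give 1 in 4 on average, and the excess was not tested. Between arrays of the same number, deviations from the group means correlated with r of -0.0841 to 0.198.

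Counts of genes past the threshold depended more on the setting. In GFP+ cells 21 genes passed, and 5 without smoke pools 2 and 4. From the GFP+ arrays alone 18 passed, and 2 when sustentacular signal was added to that fit as a covariate. In GFP- cells 25 passed, and 13 to 28 with each array left out (13, 14 and 16 without vehicle GFP- 1, vehicle GFP- 2 and smoke GFP- 2). Without smoke pools 2 and 4, 7 passed. From the GFP- arrays alone 8 passed, and 12 when immune signal was added to that fit as a covariate. For the ratio 34 passed, and 9 without smoke pools 2 and 4. A fit to fewer arrays has fewer degrees of freedom, and what moved the counts was not tested. S100a5 in GFP- cells (0.62) passed with trend and robust (adjusted p = 0.0445). Relative to each array's median receptor, GFP+ minus GFP- was -4.52 for Olfr237, -5.37 for Olfr1042, -6.24 for Olfr1384 and -6.47 for Olfr1406, since the median receptor was higher in GFP+ cells. With the 99th percentile of vomeronasal receptors as the background level, 20 of 32 GFP+ values lay above it, and with the 90th or 95th all 32 did.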
